A study of Mus musculus with 12 samples.

Results

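The genes described here encode 10 neuronal proteins that bind microtubules or free tubulin: Map2, Map1a, Map1b, Mapt, Map4, Map6, Dcx, Dclk1, Stmn1 and Stmn3. They were chosen by name and make up 10 of the 38720 genes listed in each of the deposited tables, and all 10 had enough reads to be tested in every comparison. RNA was sequenced from retinas of newborn (P0) mice of strain C57/BL6, either Math5Cre+;Ezh2f/f (mKO) or wild type (WT), after the dissociated cells had been separated with magnetic beads against CD90 (Thy-1) into retinal ganglion cells (RGCs) and the remaining cells (non-RGCs). Each genotype and cell fraction was represented by 3 libraries from independent RNA extractions, 12 in all, and it is not stated whether each extraction came from separate animals, so that p-values measure the spread between extractions. In mKO mice the catalytic SET domain of the histone methyltransferase Ezh2 is floxed, and Cre is expressed from the Math5 locus, which is active in progenitors that give rise to RGCs. Math5-Cre does not reach every RGC, so mKO libraries mix cells with and without the deletion. Control libraries are labelled only as wild type, and effects of the Cre allele and of the deletion cannot be told apart.

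Microtubules are hollow polymers of tubulin that fill axons and dendrites and serve as tracks for motor proteins. Structural microtubule-associated proteins such as tau and Map2 coat and stabilise the polymer, doublecortins bind it in migrating and growing young neurons, and stathmins hold free tubulin back from assembly. RGCs are the neurons that send the axons of the optic nerve to the brain, and in newborn mice those axons are still growing.

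The libraries held 7139633 to 13014004 reads on genes. All 10 RGC markers were higher in the RGC than in the non-RGC fraction of either genotype, and their summed level in the RGC fraction was 2080 to 2250 RPM (reads on a gene per 1000000 reads on all genes of the library) for WT and 1697 to 1753 for mKO mice, and in the other fraction 233 to 243 for WT and 395 to 476 for mKO mice, with none of the 10 at 0. All 5 blood markers were higher in mKO mice in both fractions, with summed levels in RGCs of 24.3 to 30.2 against 9.34 to 11.04 RPM, and 6 microglial markers reached 107 to 257 RPM in the RGC fraction against 1.71 to 21.2 in non-RGCs. Ezh2 itself had 1354 to 1476 normalised reads in mKO RGCs and 1190 to 1678 in WT RGCs, so the groups overlapped, and since reads were summed over the whole gene, exons outside the deleted part are included and this level is no check of the deletion. Libraries are lettered A to C from the deepest to the shallowest within their group, because the deposited means carry no replicate numbers.

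In RGCs, 6 of the 10 genes were lower in mKO than in WT mice and none was higher, a count that fell to 1 (Stmn1) once trends with GC content and read density were removed. Stmn3, a neuronal stathmin, was 1.68-fold lower, Mapt, which encodes tau, 1.45-fold lower, and Map6, which keeps microtubules stable in the cold, 1.37-fold lower. Map4, Map1b and Stmn1 were 1.20- to 1.26-fold lower. The doublecortins Dcx and Dclk1 and the dendritic protein Map2 did not pass the test, with log2 fold changes of 0.03, 0.10 and -0.06. These are differences on the log2(normalised reads + 1) scale from limma with Benjamini-Hochberg adjustment over all genes, called at an adjusted p under 0.05, and 37.5% of the 16085 genes tested were called by it, 21.2% as lower and 16.3% as higher. In bulk RNA, fewer cells of a type and less RNA per cell cannot be told apart. In the same comparison 8 of 10 RGC markers (median log2 fold change -0.44) and 6 of 10 photoreceptor markers (-0.70) were lower, the latter with sums of 482 to 536 RPM in mKO and 563 to 819 in WT libraries. Also lower were 4 of 10 amacrine and horizontal (-0.31, with 1 higher), 4 of 10 progenitor (-0.45) and 3 of 7 astrocyte and Mueller markers (-0.44). Of 7 endothelial and pericyte markers (-0.55) 1 was lower, and of 6 microglial markers (-0.56) none was called. Of the pigment epithelium markers Tyr and Pmel were higher, and the sum of the 6 was 32.3 to 48.7 against 15.9 to 22.1 RPM. The part of these cells in the differences was not tested.

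Mapt, the axonal member of the family it shares with Map2 and Map4, had 5931, 6198 and 6322 normalised reads in mKO RGCs and 9034, 9336 and 8398 in WT RGCs. All mKO libraries lay below all WT libraries, and the log2 fold change was -0.54 (standard error 0.0615, adjusted p = 0.00107). Map4, the relative that is also used widely outside neurons, had 6453, 6541 and 6792 normalised reads in mKO and 8821, 8873 and 7366 in WT RGCs, again without overlap (log2 fold change -0.34, standard error 0.0829, adjusted p = 0.0183). Map2, which marks the cell body and dendrites, had 6185, 6287.5 and 6687 in mKO and 7116, 7386 and 5610 in WT RGCs. Here WT library C was the lowest of all 6 and the genotypes overlapped, with a log2 fold change of -0.06 and a 95% interval from -0.31 to 0.19.

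Map1b, a large protein of growing axons that is cut into a heavy and a light chain, was the gene with the most reads among the 10. It had 11387, 11877 and 12554 normalised reads in mKO RGCs and 14824, 16828 and 13232 in WT RGCs (log2 fold change -0.32, standard error 0.0959, adjusted p = 0.0367). Its close relative Map1a, which takes over in mature neurons, had 2968, 2915 and 3238 in mKO and 4086, 4478 and 2697 in WT RGCs. WT library C fell below every mKO library, and the log2 fold change of -0.27 did not pass the test (95% interval -0.69 to 0.15, adjusted p = 0.268). Map6 had 4732, 4844 and 5050 normalised reads in mKO and 7223, 7139 and 5760 in WT RGCs, with no overlap (log2 fold change -0.45, standard error 0.0942, adjusted p = 0.00951).

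Stmn3 had the largest difference of the 10. Its normalised reads were 944, 984 and 969 in mKO RGCs and 1585, 1599 and 1690 in WT RGCs, and the log2 fold change was -0.75 (standard error 0.0532, adjusted p = 0.000644). The raw reads did not overlap either, with 1030 to 1082 in mKO and 1448 to 1564 in WT RGCs. Stmn1, the founding stathmin, which is abundant in dividing cells as well as in young neurons, had 469, 469 and 471 normalised reads in mKO and 534, 541 and 621 in WT RGCs (log2 fold change -0.26, standard error 0.0802, adjusted p = 0.0384). Its raw reads overlapped at 500 to 537 in mKO and 498 to 532 in WT RGCs, so the groups were apart in scaled reads and not in raw reads.

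Dcx, which encodes doublecortin, had 6383, 6569.7 and 6892 normalised reads in mKO RGCs and 6844, 7302 and 5443 in WT RGCs. The 3 mKO libraries lay inside the range of the WT libraries, and the log2 fold change was 0.03 with a 95% interval from -0.23 to 0.29. Dclk1, in which a doublecortin domain is joined to a kinase, had 6290.1, 6369 and 6651 in mKO and 6615, 6776 and 4816 in WT RGCs, with a log2 fold change of 0.10 (95% interval -0.20 to 0.41). On the linear scale these intervals ran from 0.853 to 1.22 and from 0.869 to 1.32.

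**Figure D1:**
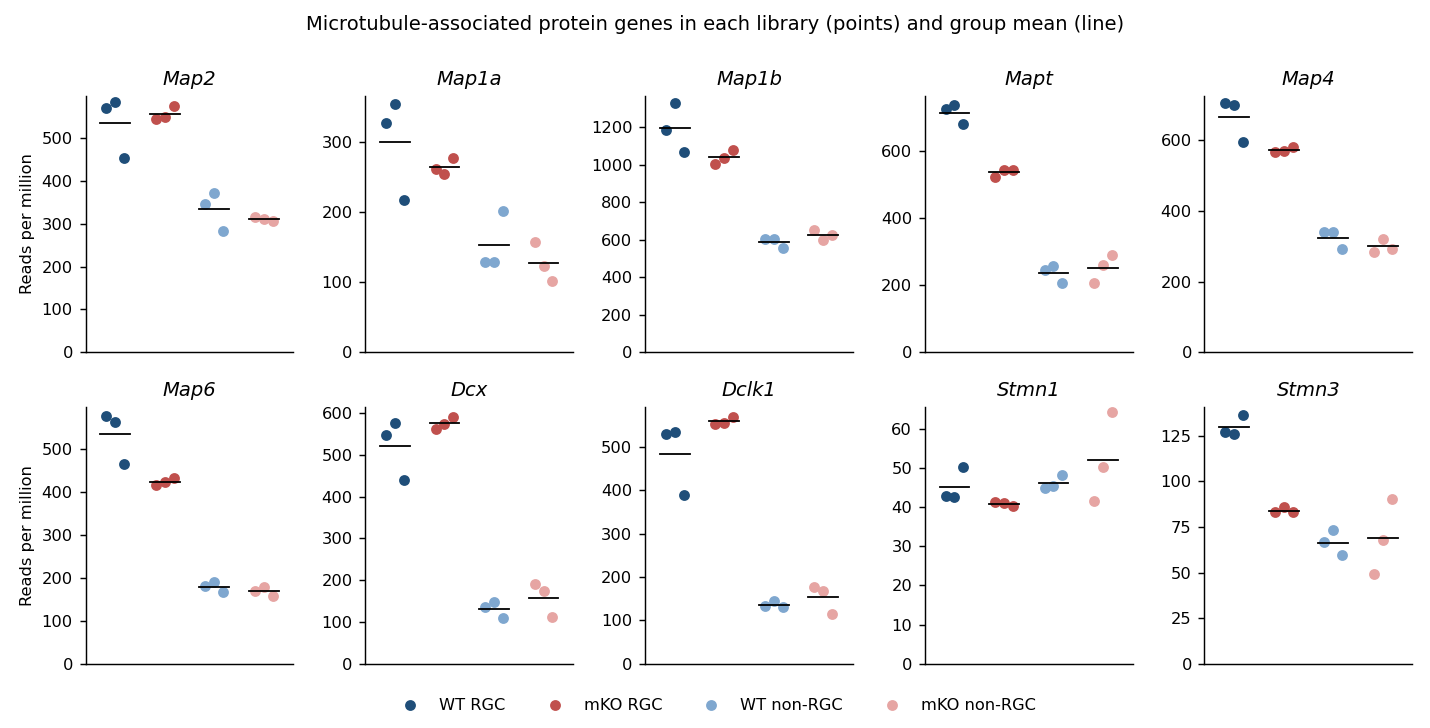
RPM (vertical axis, from 0) of the 10 genes in each library (points, A to C from left to right within a group) with the mean of 3 libraries (line), by genotype and fraction. In RGCs, Mapt, Map4, Map6, Stmn1 and Stmn3 are lower in every mKO library than in every WT library. The 3rd WT RGC library is the lowest of its group for 8 of the 10 genes, and Stmn1 is alone in having no higher mean in RGCs than in non-RGCs.

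In normalised reads, every mKO RGC library lay below every WT RGC library for 6 of the 10 genes (Map1b, Mapt, Map4, Map6, Stmn1 and Stmn3), as it did for 28.2% of all genes tested. For none of the 10 was the order the opposite, as it was for 24.8% of all genes. In RPM Map1b overlapped, at 1003 to 1077 in mKO and 1070 to 1329 in WT RGCs. The median log2 fold change of the 10 was -0.30, beside -0.00237 over all genes tested. WT RGC library C was the lowest of its group for 8 genes and the highest for Stmn1 and Stmn3, and the summed level of its 10 progenitor markers was 1874 RPM against 1125 and 1181 in the other 2 WT RGC libraries (1174 to 1286 in mKO RGCs). Its 10 photoreceptor markers summed to 819 against 563 and 571, and the part of these cells in the levels of the 10 genes was not tested. Without that library 8 of the 10 genes were lower in mKO RGCs, where 50.8% of all genes were called and 27.6% were lower. The added ones were Map1a at -0.49 and Map2 at -0.18, while Dcx and Dclk1 turned to -0.10 and -0.06 and did not pass. Leaving out any 1 of the other RGC libraries left 3 called as lower, and Mapt, Map6 and Stmn3 were the 3 in each case. In those fits 14.3% to 18.5% of all genes were called as lower.

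**Figure D2:**
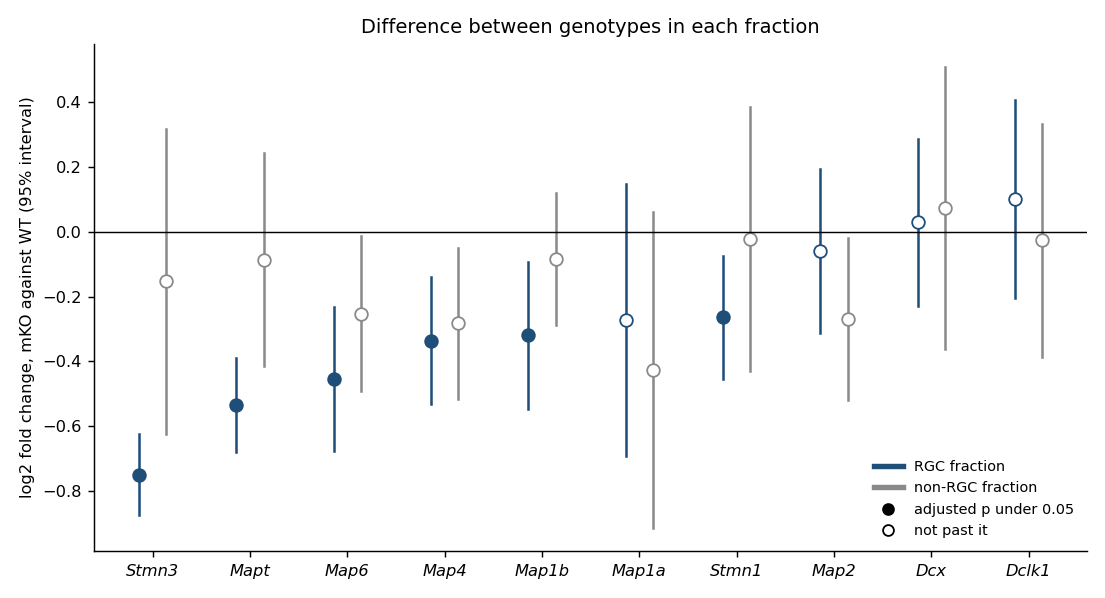
Log2 fold change of mKO against WT (vertical axis) with its 95% interval for each gene in the RGC and non-RGC fractions, ordered by the value in RGCs; filled points have an adjusted p under 0.05. The values in RGCs run from -0.75 for Stmn3 to 0.10 for Dclk1, with 6 filled points below 0, and no point is filled in non-RGCs.

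The 10 genes were next set beside genes of like base composition and read density. Across the 10 genes the GC content of the exons ran from 39.5% in Dcx to 57.3% in Stmn3, and genes elsewhere in the genome with a GC content within 1 percentage point had a median log2 fold change of 0.42 beside Dcx and of -0.41 beside Stmn3. Reads per base of exon were high as well. Stmn3 had a mean of 0.876 over the 12 libraries, more than 99.6% of the 14726 genes compared, Mapt had 0.670 and Map1b 0.631. Beside Mapt (-0.54), the 61 genes alike in GC content (within 2 points) and in reads per exon base (within 0.5 on the log2 scale) had a median of -0.54, and beside Map6 (-0.45) the 218 such genes had -0.44. For Stmn3 (-0.75) the 31 such genes had a median of -0.64. Stmn1 (-0.26) lay below the median of its 477 such genes, which was 0.13. The tables were made after duplicate reads had been removed. With an estimate of the removed reads added back, 5 of the 10 were called as lower, as were 20.6% of all genes.

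**Figure D3:**
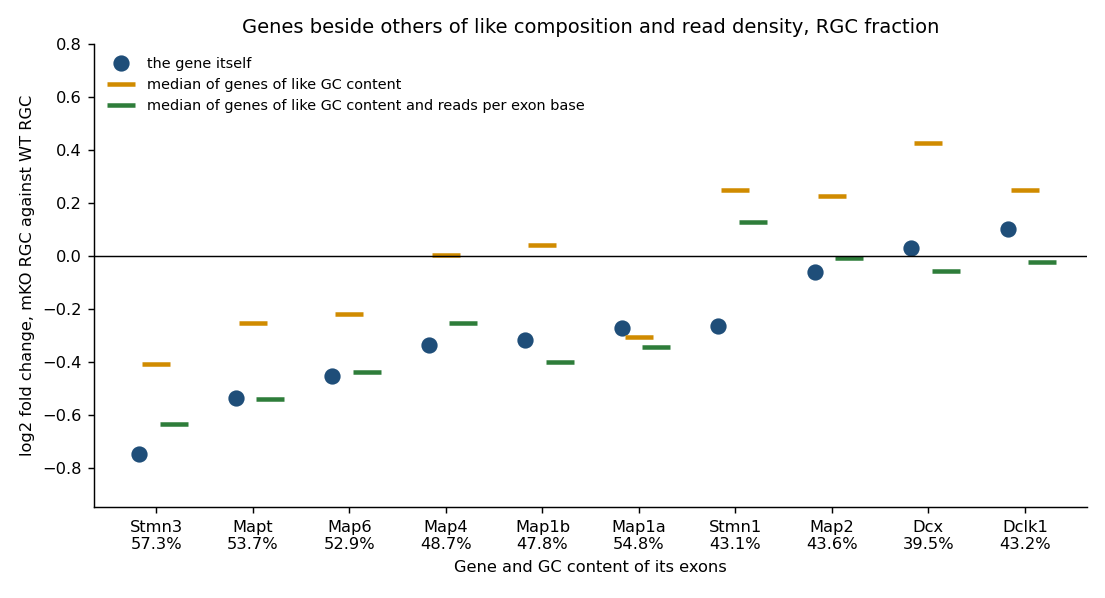
Log2 fold change of mKO RGCs against WT RGCs (vertical axis) for each of the 10 genes (points), beside the median of genes of like GC content and the median of genes of like GC content and reads per exon base (bars); the GC content of the exons is given under each name. The latter median is -0.54 beside Mapt at -0.54 and -0.44 beside Map6 at -0.45, whereas it is 0.13 beside Stmn1 at -0.26.

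Once each library's trends with GC content and read density were removed, 1 of the 10 genes was called, Stmn1 at -0.39, where 4.58% of all genes were called as lower and 2.37% as higher, and the median of the 10 was 0.011. Stmn3 (0.01), Mapt (0.07), Map6 (0.02) and Map1b (0.01) turned to values just above 0 and Map4 was at -0.08. With the GC trend alone removed the median of the 10 stayed at -0.29, 8.82% of all genes were called as lower, and Stmn3 (-0.34) and Stmn1 (-0.50) were called, Mapt was at -0.28 and Dcx, the gene of lowest GC content, at -0.38, neither of which passed. Scaling by total reads moved the median of all genes in RGCs from -0.00237 to 0.12 and the share of higher genes among the calls from 43.5% to 63.3%. It left 3 of the 10 called as lower, Stmn3 at -0.63, Mapt at -0.41 and Map6 at -0.33, beside 13.9% of all genes. Centring each library on its median left 4 called as lower, beside 19.8% of all genes. Testing all genes without a filter on the mean left 5, beside 11.8%.

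In non-RGCs, none of the 10 genes was called, where 10.6% of the 15326 genes tested were (4.18% higher and 6.43% lower). Scaling by total reads moved the share of higher genes among all calls from 39.4% to 74.8%. Map4, Map2 and Map6 had an unadjusted p under 0.05 in limma, and no other tool was run. Map4 had 2820, 3176 and 2956 normalised reads in mKO and 3727, 3772 and 3392 in WT non-RGCs (log2 fold change -0.28, adjusted p = 0.105 in limma). Map2 had 3057 to 3109 against 3279 to 4119 (-0.27) and Map6 1597 to 1754 against 1930 to 2095 (-0.25). In normalised reads all mKO libraries lay below all WT libraries for Map4, Map2, Map6 and Map1b, as they did for 19.2% of all genes. In RPM the libraries of each of these genes overlapped. Map1b, at 596 to 650 RPM in mKO and 556 to 602 in WT non-RGCs, there had the higher mean in mKO mice. The other log2 fold changes ran from -0.43 in Map1a to 0.07 in Dcx. Stmn3 spread widely among mKO non-RGC libraries, at 488, 668 and 912 normalised reads in libraries of 12828281, 10288195 and 7139633 reads on genes. Dcx went the other way, at 1879, 1719 and 1116 in the same libraries, and the 95% intervals of their fold changes ran from -0.62 to 0.32 and from -0.36 to 0.51. The summed RGC markers were higher in mKO non-RGCs and 8 of those 10 were called as higher.

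Whether the effect of genotype differed between the fractions was tested across the 12 libraries on log2(RPM + 1), because the tables had been normalised separately. None of the 10 differed at an adjusted p under 0.05, and 0.165% of all 16315 genes did (0.00613% higher and 0.159% lower), with 1576 genes at an unadjusted p under 0.05. Mapt (-0.50, adjusted p = 0.459), Stmn3 (-0.64, adjusted p = 0.491) and Map1b (-0.28, adjusted p = 0.504) had unadjusted p-values of 0.00978, 0.0165 and 0.0318 in limma. Of the 10 RGC markers, 7 did pass in that direction. Without mKO non-RGC library A, the library lowest for Mapt and Stmn3 in its group, the interaction passed for both, at -0.64 and -0.86. In that fit 197 genes were called in place of 27, 139 of them higher and 58 lower.

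Cell fractions were then compared within each genotype. In WT mice, 9 of the 10 genes were higher in RGCs than in non-RGCs, where 51.3% of all genes were called and 23.9% were higher. For the same 9 genes all RGC libraries lay above all non-RGC libraries (26.9% of all genes) and for none below (32.0%). Dcx, at 440 to 577 RPM in WT RGCs and 110 to 148 in WT non-RGCs, was 3.96-fold higher (log2 1.98, standard error 0.176, adjusted p = 1.37e-06 in limma). Dclk1 followed with 389 to 535 against 130 to 144 (3.51-fold), then Mapt with 679 to 737 against 206 to 258 (3.02-fold) and Map6 with 466 to 578 against 167 to 189 (2.98-fold). Map4 was 2.05-fold, Map1b 2.03-fold, Map1a 1.95-fold, Stmn3 1.95-fold and Map2 1.60-fold higher. These sizes are of reads left after duplicates were removed. With the correction for removed duplicates 9 were again higher, as were 24.3% of all genes, and the median log2 difference of the 10 was 1.31 in place of 1.03. Stmn1 was the exception, with 42.7 to 50.2 RPM in RGCs and 44.8 to 48.3 in non-RGCs (log2 difference -0.03, 95% interval -0.34 to 0.27). In the same comparison 8 of 10 amacrine and horizontal, 9 of 10 photoreceptor and 9 of 10 progenitor markers were lower in RGCs.

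In mKO mice 8 of the 10 genes were higher in RGCs, where 61.6% of all genes were called, 26.1% as higher and 35.6% as lower. For the same 8 genes all RGC libraries lay above all non-RGC libraries, as for 29.0% of all genes, and for Stmn1 all lay below, as for 41.0%. Dclk1 and Dcx were both 3.71-fold higher, Map6 at log2 1.32, Mapt 2.14-fold, Map1a 2.10-fold, Map4 1.91-fold, Map2 1.79-fold and Map1b 1.67-fold. Stmn3, at 83.1 to 85.9 RPM in mKO RGCs and 49.3 to 90.5 in mKO non-RGCs, did not pass (log2 0.32, 95% interval -0.04 to 0.67, adjusted p = 0.106 in limma). It passed at 0.53 without mKO non-RGC library C, at 0.44 with libraries centred on their median, at 0.53 with both trends removed and at 0.49 with the correction for duplicates. Stmn1, at 40.3 to 41.3 against 41.5 to 64.4, had a log2 difference of -0.32 (adjusted p = 0.0626 in limma), and passed at -0.47 without mKO non-RGC library A. Of the 10 RGC markers 8 were called as higher in mKO than in WT non-RGCs and none as lower. Among them Thy1, the antigen used to separate the cells, was 14.5-fold higher there, and it was 1.66-fold lower in mKO than in WT RGCs. The part of the separation in these differences between fractions was not tested.

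RPM per kilobase of exon was used to set the genes side by side. In WT RGCs the order was Stmn3 (114), Mapt (94.7), Map1b (75.4), Map6 (58.5), Map4 (44.1), Dcx (41.2), Map2 (32.5), Dclk1 (31.7), Map1a (24.6) and Stmn1 (23.5), and the libraries of neighbours did not overlap down to Map4, while each gene from Map4 to Stmn1 overlapped the next. In mKO RGCs Stmn3 (74.0) and Mapt (71.1) stood close together above Map1b (65.6), and Dcx (45.5) came level with Map6 (46.3) and above Map4 (37.9). In WT non-RGCs Stmn3 (58.5), Map1b (37.0) and Mapt (31.4) again came first and Stmn1 (24.0) was 4th, whereas Dcx (10.4) and Dclk1 (8.88) came last. Stmn1 was last in RGCs and 4th in non-RGCs, with group means of 21.3 to 27.1 in all 4 groups. The lengths are those of all annotated exons, and the reads are those left after duplicates were removed. Whether the order holds for RNA levels was not tested. The place of Stmn1 in it rests on the near constant read number described next.

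Stmn1 had a near constant number of reads in all libraries. It had 460 to 545 reads in each of the 12 libraries, a span of 1.18-fold, while total reads on genes spanned 1.82-fold and Dcx spanned 9.27-fold. Of 1990 genes of like read number, 0.201% were as narrow, and the median span was 2.35-fold. The gene holds 1922 exon bases, 301 of its 1956 possible 75-base windows (15.4%) are shared with Gm11223, and 66 exon bases overlap Gm23634. With 0.269 reads per exon base it was less densely read than Stmn3 (0.876), which spanned 2.47-fold. The cause was not tested. Every comparison of Stmn1 divides this near constant number by a measure of depth, including its call in RGCs.

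**Figure D4:**
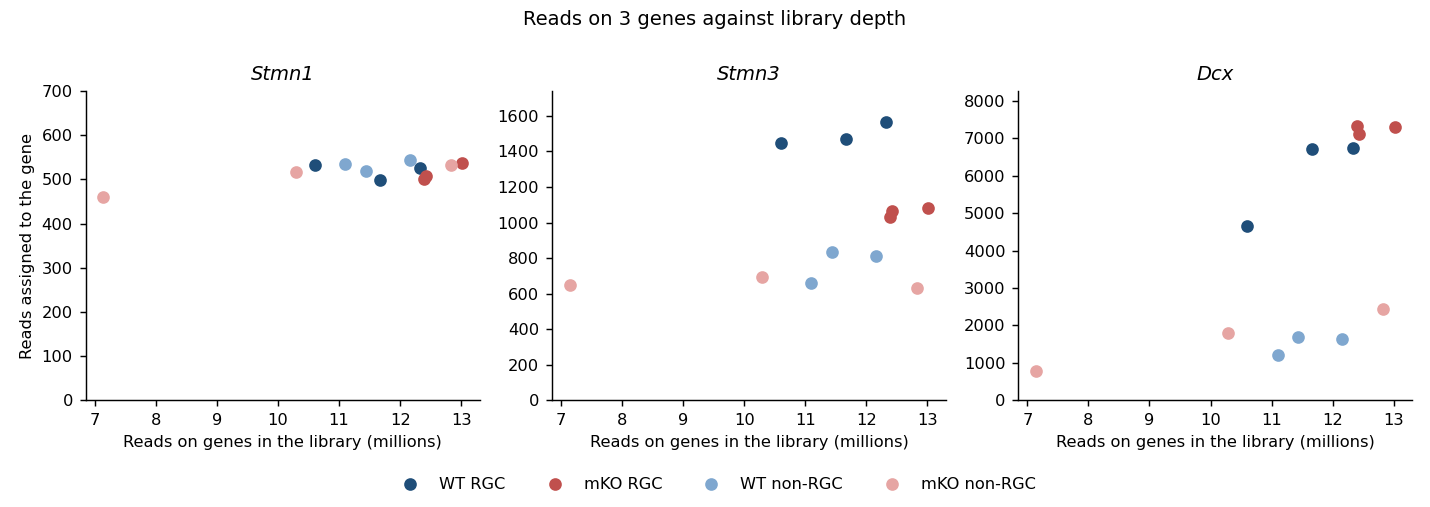
Reads assigned to Stmn1, Stmn3 and Dcx (vertical axes, from 0) against the reads on genes of each of the 12 libraries (horizontal axis), coloured by group. Stmn1 stays between 460 and 545 reads from the shallowest to the deepest library, whereas Stmn3 and Dcx separate by cell fraction.

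The 10 genes lie on 9 chromosomes of GRCm38, with Map1a and Stmn3 both on chromosome 2. Mapt spans 104231390 to 104332090 of chromosome 11, Map1b 99421446 to 99516540 of chromosome 13, Dcx 143855842 to 143933311 of chromosome X and Stmn3 181306459 to 181314500 of chromosome 2. Map1a shares 272 exon bases and 1.63% of its windows with the neighbouring Ppip5k1, and in Mapt, Map1b, Map6, Dcx and Stmn3 no window is shared and no exon base overlapped. RefSeq promoters (GRCm38.p6, 250 bases before to 50 after a start) were matched for 7 of the 10 genes, all but Mapt, Map6 and Stmn1. The pair CG, which reads the same on either strand and is the site of DNA methylation, occurred 23 times in the promoter of Map1b, 27 in Map1a, 37 in Map2 and 42 in the first of Map4 but 5 in its second, 3 times in either promoter of Dcx, 5 and 6 times in those of Dclk1 and 6 times in that of Stmn3. All 32851 promoters had a median of 7, and 94.6% held the pair at least 1 time. The 250 bases before a RefSeq start are shown for Stmn3, the gene with the largest difference in RGCs, and for 1 of the 2 starts of Dcx, a gene that was not called, with CG in capitals, each with 3 pairs. The Dcx start shown lies inside the GENCODE span given above, so most of its stretch is within the annotated gene.
Stmn3, chr2:181314501-181314750, minus strand: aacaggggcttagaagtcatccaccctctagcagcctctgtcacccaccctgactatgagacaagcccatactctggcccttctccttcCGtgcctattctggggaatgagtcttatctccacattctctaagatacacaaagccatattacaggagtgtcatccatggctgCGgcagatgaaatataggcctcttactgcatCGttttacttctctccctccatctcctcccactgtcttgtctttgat
Dcx, chrX:143933125-143933374, minus strand: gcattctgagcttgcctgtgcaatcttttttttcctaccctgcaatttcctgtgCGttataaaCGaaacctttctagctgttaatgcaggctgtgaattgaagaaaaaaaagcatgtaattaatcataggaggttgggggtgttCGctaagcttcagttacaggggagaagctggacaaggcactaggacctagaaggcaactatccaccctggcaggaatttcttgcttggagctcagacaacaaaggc

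Among 12207 genes with at least 10 RPM in a group, those whose centred levels over the 12 libraries were nearest to Mapt were Eml2, Nrsn2 and Shisa5, with root mean square differences of 0.114, 0.118 and 0.124 on the log2 scale. Eml2 encodes another microtubule-binding protein, and its means in the RGC fraction were 97.4 RPM for mKO and 120.04 for WT mice, against 44.4 and 39.5 in the other fraction. The genes nearest to Dcx were Nt5dc3 (0.0888), Dclk1 (0.0980) and Elmo1 (0.119). Dclk1 was thus the 2nd nearest of all genes to its relative Dcx. Nearest to Map4 were Sfxn3 (0.0513), Atcay (0.0644) and Kif5c (0.0657), a neuronal kinesin heavy chain that walks on microtubules. The median difference over all genes was 0.83 for Mapt, 1.11 for Dcx and 0.67 for Map4.

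Of 80 related genes in 7 lists (other structural proteins, stathmin and doublecortin relatives, proteins of microtubule ends, kinases that phosphorylate these proteins, collapsin response mediator proteins, severing enzymes with Lis1 partners, and tubulin-modifying enzymes), 78 were tested. In RGCs 38 were lower and 3 higher in mKO mice (21.2% and 16.3% of all genes), with a median log2 fold change of -0.24. Scaling by total reads gave 31 lower and 13 higher (13.9% and 23.9% of all genes). Leaving out WT RGC library C gave 47 and 11 (27.6% and 23.1%). All 5 collapsin response mediator proteins, which link tubulin to growth cone signals, were lower, among them Crmp1 with 3659 to 3863 normalised reads against 5648 to 5865 (-0.61) and Dpysl3 with 6041 to 6458 against 9132 to 9609 (-0.59). Of 15 kinases and Cdk5 activators 10 were lower and 2 higher. The Cdk5 activators Cdk5r2 (-0.81) and Cdk5r1 (-0.58), which turn on the tau kinase Cdk5, were the lowest, and Ttbk2 (0.67), a tau tubulin kinase, and Mapk8 (0.28) the higher ones, though Mapk8 was at -0.28 after removal of the GC trend and at -0.20 after that of read density as well. Fign (0.97), a severing enzyme, was also higher, and Ndel1 (-0.25), a dynein partner, was lower. Ttbk2 and Fign did not pass once the GC trend was removed (0.42 and 0.65) or once both trends were (0.44 and 0.53).

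Map1lc3a (-0.89), which is named as a Map1 light chain, and Map7d1 (-0.67) were the lowest of 5 lower genes among the 13 of the list of other structural proteins. Stmn2 (-0.54, with 2197 to 2308 normalised reads against 3207 to 3342) and Dclk2 (-0.41) were the lowest of 3 lower stathmin and doublecortin relatives of 6. Of 17 genes of microtubule ends 6 were lower, with Gas2l1 (-0.76) and Clip3 (-0.56) the lowest. Vash1 (-0.70), which removes the last tyrosine of tubulin, and Ttll11 (-0.61), a glutamylase, led the 6 lower of 12 tubulin-modifying enzymes. The 3 higher genes had a GC content of 36.8% to 42.8%, and among the lower genes named here it ran from 42.4% in Stmn2 to 63.9% in Cdk5r2. With the trends of GC content and read density removed, 4 of the 78 were lower and 1 higher (4.58% and 2.37% of all genes). That 1 higher gene was not among the 3 higher genes above. With the GC trend alone removed 13 were lower and none higher (8.82% and 4.91%). With both trends removed Map1lc3a (0.027), Map7d1 (0.19), Cdk5r2 (0.057), Cdk5r1 (0.028), Clip3 (0.075) and Vash1 (0.11) turned to values above 0.

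Of the 10 genes and the 78 related ones, 3 were called as lower in RGCs in the original fit and under all 14 alternatives: Stmn2 (-0.81 to -0.42), which encodes the neuronal stathmin SCG10, Mapre2 (-0.51 to -0.28), an end-binding protein, and Mark3 (-0.48 to -0.18), a kinase of microtubule-associated proteins. Mapre2 and Mark3 were named after their values had been seen. Of the 12458 genes tested in every one of these fits 2.62% were called as lower throughout, so 3 of 88 is near the share of all genes. None of the 10 was called under all of them.

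In non-RGCs 20 of the 78 were lower and 1 higher in mKO mice (6.43% and 4.18% of all genes), with a median of -0.26. Vash1 (-1.11, with 843 to 1046 normalised reads against 1914 to 2099), Ttbk1 (-1.09), Map1s (-0.64), Camsap3 (-0.60), Dpysl5 (-0.41) and Dclk2 (-0.39) were each the lowest called gene of their list, and Map9 (0.55), at 1099 to 1167 against 711 to 831, was the higher one. None was called once the GC trend was removed, with or without that of read density. Without mKO library B or without WT library B, 2 of the 78 were called as lower, Mark4 and Vash1. Of all genes 0.607% and 1.44% were called as lower in these fits. In WT mice 41 of the 78 were higher in RGCs than in non-RGCs and 8 lower (23.9% and 27.5% of all genes), in mKO mice 50 and 8 (26.1% and 35.6%), and no interaction of genotype and fraction was called among them.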

How the data were processed

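RNA was measured in 12 libraries of P0 mouse retina, 3 for each genotype and cell fraction. The authors aligned single-end reads with STAR (version 2.3.1z4) to mm10, removed duplicate reads according to the file names, counted reads per gene with featureCounts and divided them by DESeq size factors. The deposited signal is the mean of these normalised counts over the 3 libraries of a group. Columns of the authors' comparisons (fold changes and p-values) were not used.

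Because a deposited mean carries 15 digits, and a read of a given library always adds the same amount to it, the reads of each library were recovered, with exactly 1 solution for all genes with reads (25690 for mKO and 23544 for WT in the RGC table, 24386 and 22931 in the other). Genotypes were compared within a fraction with limma 3.58.1 (R 4.3.3) with a mean-variance trend on log2(normalised reads + 1), where the mean reached 10 in mKO or WT libraries. Fractions and the interaction were compared on log2(RPM + 1) over genes with at least 1 RPM in a group, which the recovered reads made possible. P-values were adjusted by the Benjamini-Hochberg method over all genes tested. The script was tested on simulated data. Alternatives were a pseudocount of 0.5, no filter, a mean of at least 50, scaling by total reads, centring on the median, removal of trends with GC content and reads per exon base, a correction for removed duplicates, and leaving out each library.

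Gene positions, lengths of exons and their base composition were read from the GENCODE M21 annotation (GRCm38), which matched 35575 of 38720 genes by symbol. The 10 genes, the related and marker lists and the tests were chosen with earlier results of these data known. Named besides the 10 were Ezh2, the 3 genes nearest to Mapt, Dcx and Map4 in pattern and, for each related list, the 2 highest and 2 lowest fold changes among its genes called in RGCs and the highest and lowest among those called in non-RGCs; 1 gene under this rule is not reported here. Python 3.11.15 was used with numpy 2.4.6, pandas 2.3.3 and matplotlib 3.10.9.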

Additional observations from a re-analysis of the deposited data

How the results depend on the processing

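No paired analysis was possible because the recovered libraries carry no replicate numbers. Of 790 recomputed values of single genes, 707 kept their direction and side of the threshold, 27 lost and 9 gained the call, and 47 changed sign. All 27 lost calls were in the comparison of genotypes in RGCs. There 97 values kept direction and side, 14 changed sign and 2 gained the call. None of the 10 genes was called in non-RGCs under any alternative. With the GC trend removed, 2082 genes and 2 of the 10 were called in RGCs and 207 genes in non-RGCs. The median of the 10 in RGCs stayed at -0.29 (-0.30 before). With both trends removed the numbers called were 1054, 1 and 224, with a median of 0.011. Scaling by total reads left 6095 genes and 3 of the 10 called in RGCs, centring 5990 and 4, and no filter 5768 and 5. Leaving out each library gave 3770 to 8184 genes and 3 to 8 of the 10 in RGCs, 141 to 1614 genes in non-RGCs, and 0 to 2 of the 10 for the interaction. The causes were not tested.

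Signs changed in RGCs for Map2 scaled by total reads (0.062), with the GC trend removed for Map1a (0.037), Dcx (-0.38) and Dclk1 (-0.13), and with both trends removed for Map1a (0.086), Map1b (0.014), Mapt (0.069), Map6 (0.019), Dcx (-0.10) and Stmn3 (0.0076). In non-RGCs they changed scaled by total reads for Map1b (0.088), Mapt (0.086), Dclk1 (0.15), Stmn1 (0.15) and Stmn3 (0.018), with the GC trend removed for Mapt (0.10), Dcx (-0.15) and Stmn3 (0.16), and with both removed for Map1b (0.054), Mapt (0.17), Dcx (-0.14) and Stmn3 (0.29). Between WT fractions Stmn1 turned to 0.18 with both removed, and for the interaction Map4 (0.012) and Dcx (0.022) turned with libraries centred on their median.

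Leaving out each library gave ranges across 0 in RGCs for Map2 (-0.18 to 0.015), Dcx (-0.10 to 0.12) and Dclk1 (-0.057 to 0.19). In non-RGCs they were -0.21 to 0.058 for Mapt, -0.074 to 0.30 for Dcx, -0.14 to 0.16 for Dclk1, -0.20 to 0.13 for Stmn1 and -0.38 to 0.073 for Stmn3. Between WT fractions Stmn1 ran from -0.11 to 0.0053, and for the interaction Map1a from -0.11 to 0.27, Dcx from -0.33 to 0.059 and Dclk1 from -0.12 to 0.19.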
